A study of Bos taurus with 11 samples.

Results

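The 6 Sahiwal arrays of a study of 11 cattle were described here, by the rule that only samples titled Sahiwal enter and that a probe counts as measured when it lay well above background on all 6 arrays. Sahiwal is a zebu dairy breed of the low plains, and each array held RNA from peripheral blood mononuclear cells (PBMC) of 1 female animal that the labels call basal. Age, treatment and the way the cells were isolated are not given in the sources used here. The other arrays of the study hold cells of a high-altitude breed and enter no value below. Animals are numbered as in the scanner files. The 6 Sahiwal columns of the authors' deposited value table matched these files in another order (correlations of at least 0.99998), so which animal carries which number is unsettled, while spreads over the 6 animals do not depend on it. Nothing in the labels says that the animals differed in any treatment, so the text gives values animal by animal and forms no groups of animals.

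PBMC are the lymphocytes and monocytes that remain when red cells and most granulocytes have been removed from blood, usually by density. Platelets and dense or immature granulocytes can stay with them. Monocytes answer bacterial products and other stimuli within hours by transcribing immediate early genes, then chemokines such as CCL3, CCL4 and CXCL8 that attract other leukocytes, and cytokines such as IL1B and TNF. T cells, natural killer (NK) cells and B cells are known by their receptor complexes and cytotoxic granule genes, and in cattle gamma delta T cells with WC1 family receptors are a large blood population.

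The arrays carry 43653 distinct probes of 60 bases. Spots well above background numbered 17517 (animal 3) to 20574 (animal 1) of 43803, and the 75th percentile of the signal ran from 123 (animal 3) to 375 (animal 1). Saturated spots numbered 228 and 217 in animals 1 and 2 and 71 to 102 in the others. In all, 15096 probes (34.6%) lay well above background on every array, and they represent 7707 genes with a symbol, each by its brightest measured probe. A level is the log2 signal minus the array's 75th percentile, so 0 stands for that percentile and 1 unit is a doubling. Brightness depends on the probe as well as on the RNA, so the order of different genes by level is a description of signals and not of RNA abundance. The number of arrays limits the precision, and nothing else replicates an animal, so each spread holds both the animal and its array.

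The brightest signals came from the translation machinery and the cytoskeleton. On all 6 arrays 35 genes were saturated, which leaves only a lower bound for their level and none for their spread. Of these, 14 encode ribosomal proteins of the large subunit and 11 of the small subunit. The others include TMSB4X, TMSB10 and ACTG1 of the actin cytoskeleton, the translation factor EEF1A1 with TPT1, the lymphocyte surface gene CD52, an MHC class I gene (BOLA), COTL1 and the mitochondrial message COX3. In animal 3, which had the lowest 75th percentile, a saturated spot reads 9.05, and in animal 2 it reads 7.96, and the SDs of these genes (0.46 to 0.61) hold that difference in scale.

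Among genes saturated on no array, the intermediate filament gene VIM was brightest, at 7.88 ± 0.38 (SD, n = 6). It was followed by PLAC8B (7.58 ± 0.21, SD, n = 6) and by SRGN, the proteoglycan of secretory granules (7.54 ± 0.46, SD, n = 6). The next were TSPO, a mitochondrial membrane protein gene, RPS9, UNC119, the lysosomal protease gene CTSD, the actin-binding gene PFN1, TMBIM6 and S100A4, with means of 7.25 to 7.46. EEF1D, ALDH2, the glycolytic enzyme gene ENO1, the immunoproteasome subunit gene PSMB9 and the leukocyte integrin gene ITGB2 closed the first 15, with means of 7.09 to 7.20. EEF1D was the least even of the 15, at 7.56, 7.59, 8.24, 6.75, 7.44 and 5.65 in animals 1 to 6. ALDH2 and PLAC8B were the most even, each with an SD of 0.21.

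Housekeeping classes were measured almost whole. All 34 small and 49 large ribosomal subunit genes on the array were measured, with median levels of 8.01 and 7.84, and 29 and 37 of them were saturated on at least 1 array. All 78 nuclear genes of oxidative phosphorylation were measured at a median level of 4.33, and all 38 proteasome genes at 4.06. Of the translation factors 37 of 37 were measured (median 5.40), of the splicing factors 47 of 49 (median 4.06), of the actin and cytoskeleton genes 29 of 30 (median 5.41) and of the glycolytic genes 19 of 22 (median 4.24, with GAPDH the brightest). The median over all 7707 genes was 1.71. Of all 16704 genes on the array 46.1% were measured. Against this share, inflammatory cytokine genes were measured in small part (7 of 29), chemokine genes about as often (12 of 23) and hypoxia response genes more often (20 of 27, at a median level of 1.46).

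Many markers of the labelled cells were measured, which by the rule means well above background in every animal. Others were not. The T cell genes CD28, BCL11B and FOXP3 and the monocyte genes CD36, FCGR1A and SERPINA1 were well above background on no array. IL7R and PAX5 were so on 3 arrays and CD163 on 2. Of the T cell genes 22 of 28 were measured, among them the receptor complex genes CD3E (4.38 ± 0.59, SD, n = 6), CD3G (3.71 ± 0.61, SD, n = 6) and CD3D (3.31 ± 0.64, SD, n = 6), with the receptor chain gene CD247 the brightest of the list at 6.12 ± 0.54 (SD, n = 6). B cell genes were measured in 17 of 19 cases, led by the BAFF receptor gene TNFRSF13C (5.05 ± 0.71, SD, n = 6), with MS4A1 at 3.73. Monocyte genes were measured in 28 of 35 cases, and the calgranulin genes S100A12, S100A8 and S100A9 had levels of 7.41, 6.61 and 5.63. NK and cytotoxic genes were measured in 11 of 24 cases, the same share as over all genes of the array, with CCL5 the brightest at 7.20 and GNLY and GZMB, genes of cytotoxic granules, at 4.14 and 4.02. Of 9 gamma delta T cell genes on the array 5 were measured (55.6%, against 46.1% of all genes). Among them were CD163L1 at 3.64 and BLK, which is also in the B cell list, at 4.38. TRGC6, SOX13 and ID3 of this list were well above background on no array. Dendritic cell genes were measured in 8 of 14 cases, with the transcription factor gene IRF8 the brightest at 4.52. Granulocyte genes were measured in only 8 of 29 cases, and their uneven presence is described below. The tissue is a mixture, in which fewer cells of a type and less RNA per cell cannot be told apart.

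Between animals, the median SD over the 7707 genes was 0.46, with the 10th and 90th percentiles at 0.25 and 0.83, and the typical gene spanned 2.34-fold between its lowest and highest animal. An SD of at least 1, which is no test but a mark for a large spread, was reached by 416 genes (5.40% of all measured), and an SD of at least 2 by 34. The genes nearest to the mark were KLHL33 just above it (1.00015) and PRR5 just below it (0.9995). Such genes occurred at all levels, with 164 among the 2569 dimmest genes, 129 among the 2569 of middling level and 123 among the 2569 brightest.

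Repeated spots and second probes share their array and labelled RNA, so they measure the noise of spots and probes and cannot separate the array from the animal. For 21 measured and unsaturated probes that are printed in 4 spots on each array, the median SD between spots of 1 array was 0.16, while the median SD between animals of the same probes was 0.46. Of the 416 genes, 129 had a second measured probe, which the choice had not used. In 86 of them (66.7%) the second probe also had an SD of at least 1, against 4.15% of all 3400 genes with a second probe. The median correlation between both probes over the 6 animals was 0.97 in the 129 genes and 0.81 in all 3400, as a description of probes that share their arrays.

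**Figure D1:**
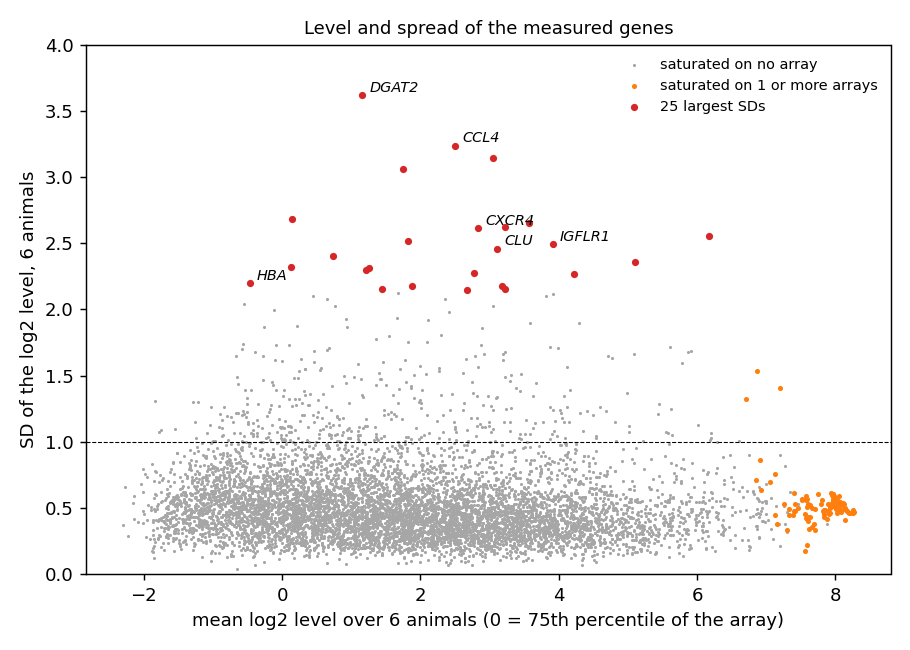
Each point is 1 of the 7707 measured genes, with its mean log2 level on the x axis and the SD of its log2 level over 6 animals on the y axis. The dashed line marks an SD of 1, the 25 genes with the largest SDs are red, and the genes saturated on 1 or more arrays (orange) lie near the upper limit of the scale. The 25 genes spread over levels from -0.47 (HBA) to 6.16 (IL1B), with DGAT2 at the top (SD 3.62).

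The 25 genes with the largest SDs fall into a few recurring patterns. The triglyceride synthesis gene DGAT2 had the largest SD of all, 3.62, and the smallest of the 25 was 2.14 (TNFSF9), with TFF2 next below at 2.12. In 13 of the 25 genes, animals 1, 2 and 3 were the highest 3. In 8 genes, animals 4 and 6 were the highest pair. Animal 5 was lowest in 16 of the 25 genes and animal 1 in 5, so these patterns overlap. These genes were chosen by their spread, so their SDs are given as a description.

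**Figure D2:**
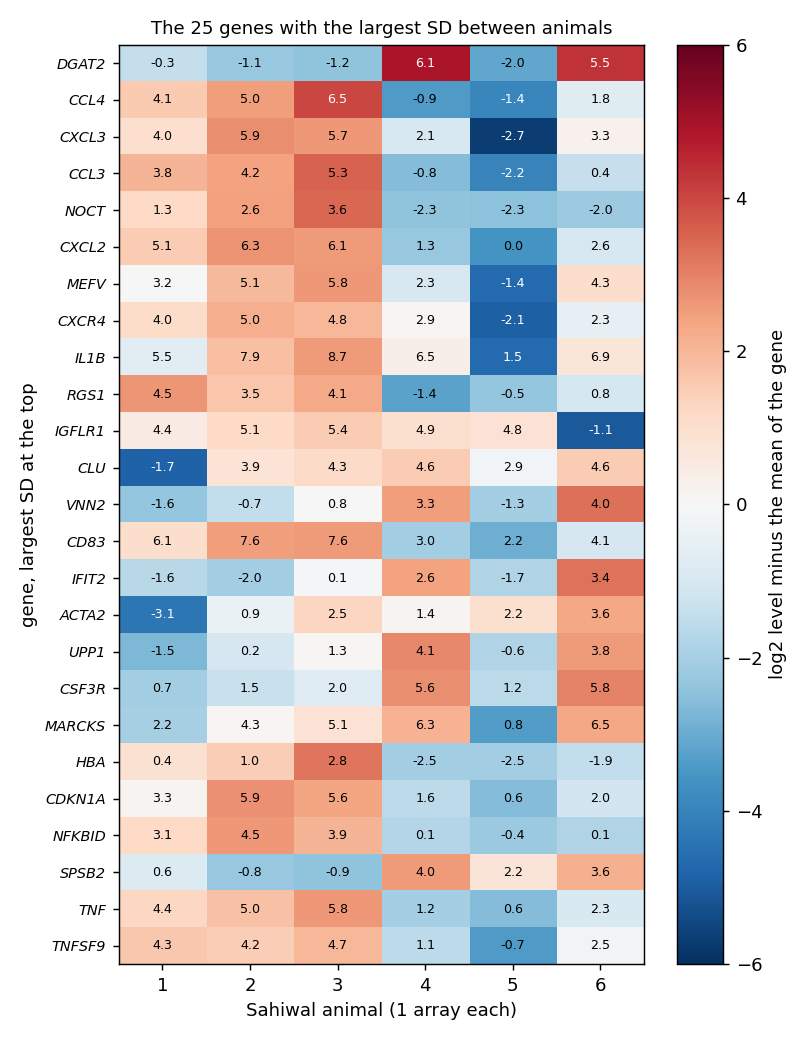
Rows are the 25 genes with the largest SDs and columns the 6 Sahiwal animals. Each cell prints the log2 level and its colour shows the level minus the mean of the gene. The chemokine rows are red in animals 1, 2 and 3, the rows DGAT2, VNN2, IFIT2, UPP1 and CSF3R are red in animals 4 and 6, IGFLR1 is blue in animal 6 alone, and CLU and ACTA2 are darkest blue in animal 1.

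Across all 416 genes with an SD of at least 1, the same arrangements recurred. Animals 4 and 6 were the highest pair in 152 genes (36.5%), against 9.74% of all measured genes. Animals 1, 2 and 3 were the highest 3 in 102 genes (24.5%, against 19.0% of all). Animal 5 was the lowest in 135 (32.5%, against 19.2%) and animal 1 in 104 (25%, against 10.95%). On a scale that sets the median of all probes equal, the first pattern held in 46.5% (15.9% of all genes) and the second in 13.8% (6.93% of all genes). The share of genes that a list gives below is read against the 5.40% of all genes that reach an SD of 1.

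Chemokine genes were the most variable class. Their median SD was 1.72, and 11 of the 12 measured chemokine genes had an SD of at least 1. CCL4 and CCL3 encode macrophage inflammatory proteins, and CXCL2, CXCL3 and GRO1 encode neutrophil attractants of a closely related family, whose members the probes may not fully separate. CCL4 measured 4.09, 4.99, 6.502, -0.91, -1.42 and 1.78 in animals 1 to 6, a span of 243-fold. CCL3 measured 3.77, 4.17, 5.26, -0.84, -2.25 and 0.35. CXCL3 measured 4.04, 5.85, 5.67, 2.08, -2.66 and 3.31. Animals 1, 2 and 3 stood above the other 3 in each of these genes, and animal 5 was lowest. Over the 12 measured chemokine genes, animals 1, 2 and 3 were the highest 3 in 5 and animal 5 was lowest in 8. That order of the first 3 animals was also common elsewhere, as in 19 of 47 splicing factor genes and 11 of 22 T cell genes, where the steps were smaller.

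The CCL3 probe is shown because its gene is one of the most uneven chemokines. The array annotation (HGSC Btau_3.1) places it at chr19:13822185-13823099 on the plus strand, a span longer than the probe.
CCL3 probe: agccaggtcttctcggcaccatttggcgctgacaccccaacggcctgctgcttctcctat

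CXCL2 followed the same order at a higher signal, with 5.09, 6.28 and 6.13 in animals 1 to 3 and 1.29, 0.00 and 2.61 in animals 4 to 6. CXCL8, the neutrophil attractant also called interleukin 8, read 3.81, 3.59, 4.78, 0.91, 0.54 and 3.66, so that animal 6 lay level with animals 1 and 2. CCL8 was high in animals 2, 3 and 6 (2.63, 2.77 and 1.98) and lower in animals 1, 4 and 5 (0.19, -0.82 and -2.19). CCL16 had another order, with 4.17 and 4.84 in animals 4 and 6 and 1.45 to 2.31 in the others.

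In 3 of the 7 measured cytokine genes animals 1, 2 and 3 were the highest 3, and in 4 of the 7 animal 5 was lowest. TNF, the first cytokine of the acute response, measured 4.44, 4.96, 5.83, 1.17, 0.62 and 2.30 in animals 1 to 6, and its second probe had an SD of 2.45. IL10, which restrains inflammation, measured 0.93, 2.49, 3.04, -1.06, -2.40 and -0.28. IL1B, the product of which drives fever, measured 5.48, 7.95, 8.70, 6.51, 1.48 and 6.87, with the reading of 1 animal saturated. In TNF and IL10 the first 3 animals lay above the others without overlap, while in IL1B animals 4 and 6 lay above animal 1 and animal 5 stood alone at the bottom. Without animal 5 the SD of IL1B was 1.25 instead of 2.55.

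IL1RN, the receptor antagonist of IL-1, was high in animals 2 and 3 (7.40 and 7.61) and lowest in animal 5 (3.44). In all, 5 of the 7 measured cytokine genes had an SD of at least 1, with a median SD of 1.599 over the list. IL16, a lymphocyte cytokine gene, had an SD of 0.56, and LTB was saturated on 4 arrays, so its spread has no reading. TNFSF9, the 4-1BB ligand gene, measured 4.31, 4.17 and 4.69 in animals 1 to 3 and 1.12, -0.73 and 2.52 in animals 4 to 6.

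Among the 35 measured genes for inflammatory receptors and signalling, animals 1, 2 and 3 were the highest 3 in 11, animals 4 and 6 the highest pair in 8, and animal 5 lowest in 18. CD83, a surface marker of activated dendritic and B cells, measured 6.15, 7.59, 7.64, 3.01, 2.17 and 4.08. NFKBID, an atypical inhibitor protein of the NF-kB family, measured 3.06, 4.47, 3.91, 0.10, -0.37 and 0.08, and its second probe had an SD of 2.19. NFKBIA, the classical inhibitor, measured 7.44, 7.90, 8.81, 5.75, 4.57 and 6.71, with 2 arrays saturated. In each of these 3 genes animals 1, 2 and 3 lay above all others, and the same held for NFKBIE and NFKBIZ, with SDs of 1.49 and 1.56. Of the 35 genes 15 had an SD of at least 1, with a median SD of 0.87.

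Immediate early genes were less uniform. Of 29 measured genes 15 had an SD of at least 1 (median SD 1.03). SGK1, a kinase gene induced by stress and steroids, measured 4.33, 5.31, 5.84, 2.93, 0.10 and 4.96. CSRNP1 measured 4.20, 4.76, 4.60, 1.49, 0.38 and 1.89. FOS, by contrast, was lowest in animal 3 (2.09) and highest in animal 6 (5.77), and FOSB and EGR1 were also highest in animal 6, at 6.29 and 5.46. In GADD45B, ATF3 and CSRNP1 animals 1, 2 and 3 were the highest 3. CDKN1A, a cell cycle inhibitor gene and target of p53, measured 3.35, 5.93, 5.57, 1.62, 0.59 and 2.04, and NOCT, a circadian gene (CCRN4L in the array annotation), measured 1.32, 2.61, 3.57, -2.29, -2.30 and -2.05. RGS1, a regulator of chemokine receptor signals, measured 4.45, 3.51, 4.11, -1.38, -0.49 and 0.76. All 3 had animals 1, 2 and 3 on top without overlap. The NOCT level of animal 6 lay close to the dimmest signal read as present on its array (-2.20). Other processing choices gave NOCT an SD of 1.94 to 2.68.

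Several inflammatory genes lay outside the all-array rule because some animals had no signal well above background. Of such genes, 2 of 17 cytokine genes, 1 of 7 chemokine genes and 5 of 17 receptor and signalling genes were read in animals 1, 2 and 3 alone. IL6, the cytokine of the acute phase, was well above background in animals 1, 2 and 3 only, at -0.81, 1.36 and 1.94. NOS2, the inducible nitric oxide synthase, was likewise read in animals 1, 2 and 3, at -1.73, 3.66 and 5.40. CCL20 was read in the same 3 animals at -1.10, 2.14 and 3.27, as were ICAM1, NLRP3, TNFAIP3, F3 and DUSP4. PTGS2, the inducible cyclooxygenase, was read at 0.99, 2.22 and 3.25 in them and at -1.22 in animal 6, and CSF2 at 0.04, 2.65 and 3.38 and at -0.21 in animal 6. Other genes had other patterns. IL18 was read in animals 4, 5 and 6, IL15 and TLR8 in animals 1, 4, 5 and 6, and IL12A, IL36G, CCL19 and CXCL13 in animal 6 alone. The dimmest signal still read as present stood at -2.12 to -3.76, depending on the array. Among all 2931 genes with a signal well above background on 1 to 5 arrays, 58 (1.98%) were read in animals 1, 2 and 3 alone. These 58 are 12.8% of the 452 genes read on 3 arrays.

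A second set of genes was high in animals 4 and 6. DGAT2, the last enzyme of triglyceride synthesis, measured -0.28, -1.11, -1.24, 6.06, -1.97 and 5.47 in animals 1 to 6, a span of 261-fold. The gap between the upper pair and the others was 5.76 of a range of 8.03, so the animals form separate clusters and no correlation over all 6 is given a p-value. CSF3R, the receptor of granulocyte colony-stimulating factor, measured 0.69, 1.46, 1.99, 5.56, 1.18 and 5.77. VNN2, a surface enzyme of neutrophils and monocytes, measured -1.57, -0.71, 0.76, 3.25, -1.32 and 4.04. UPP1, the uridine phosphorylase gene, measured -1.46, 0.22, 1.27, 4.10, -0.60 and 3.80. In each of these 4 genes animals 4 and 6 lay above all others, and animal 3 came next in all but DGAT2.

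The genes most like DGAT2 by Pearson correlation over the 6 animals were DEF8, PLEKHG3, SRI, ARAP1 and ATP1B3 (r of 0.986 to 0.995), and the least like were NDUFA12, RNMT, LOC100336029, DNAAF4 and SET (r of -0.979 to -0.993). The 6 points of each share their arrays, and the values describe the separation of animals 4 and 6 from the others. The steps were smaller than that of DGAT2, as in SRI, which read 5.43 and 5.39 in animals 4 and 6 and 4.56 to 4.67 in the others. RNMT read 0.71 and 0.83 in animals 4 and 6 and 1.86 to 2.25 in the others. SPSB2, a ubiquitin ligase adaptor gene, was also high in animals 4 and 6 (4.02 and 3.57), with animal 5 next at 2.24. MARCKS, a membrane and actin crosslinking substrate of protein kinase C, was highest in animals 4 and 6 (6.30 and 6.52) and lowest in animals 5 and 1 (0.84 and 2.22).

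Granulocyte genes marked the same animals by detection, though not in every member. Of the 29 on the array, 8 were measured in all animals, 16 were well above background in some, and 5 in none. Of the 16, 15 were read in animal 4 and 14 in animal 6, against 5, 4, 4 and 3 in animals 1, 2, 3 and 5. CXCR1, an interleukin 8 receptor of neutrophils, was read in animals 4 and 6 only, at 3.96 and 3.27. TCN1, a vitamin B12 binding protein of neutrophil granules, was read at 3.19 and 3.101, and MPO, the myeloperoxidase of primary granules, at 0.18 and 0.71, again in animals 4 and 6 only. CXCR2, OLFM4 and the cathelicidin genes CATHL1, CATHL3 and CATHL4 were read in the same pair and in no other animal. ALOX15, a lipoxygenase of eosinophils, measured 4.51 and 3.82 in animals 4 and 6, and -2.31 and -1.27 in animals 1 and 3. Other members had other orders. LTF was highest in animal 3 (0.49, against -1.06 and -1.32 in animals 4 and 6). CATHL2 was highest in animal 1 (-0.54, against -2.04 and -0.98 in animals 4 and 6), and CD177 was read in animal 5 alone.

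The TCN1 probe is shown for the granulocyte genes that were read in animals 4 and 6 alone. Its place in the array annotation (HGSC Btau_3.1) is chr15:83952790-83952849, minus strand.
TCN1 probe: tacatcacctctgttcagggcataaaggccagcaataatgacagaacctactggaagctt

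**Figure D3:**
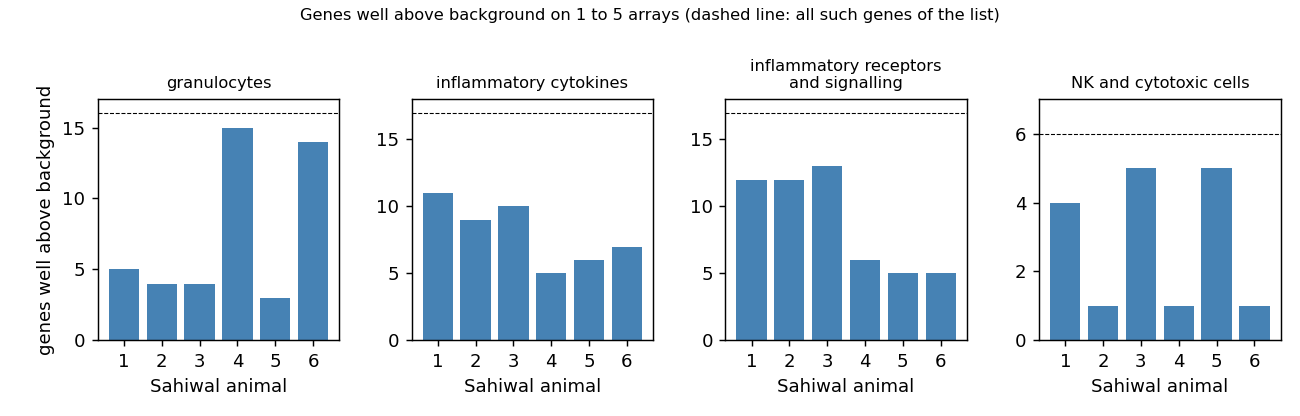
Bars count, for each Sahiwal animal, the genes of 4 lists that were well above background in that animal, among genes with such a signal on 1 to 5 arrays (dashed line). Of 16 granulocyte genes 15 were read in animal 4 and 14 in animal 6. The cytokine and inflammatory signalling genes were read more often in animals 1, 2 and 3 than in animals 4, 5 and 6. The arrays also differed in spots above background, from 17517 (animal 3) to 20574 (animal 1), and the counts are not adjusted for that.

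Over all partly detected genes this pair was not the most frequent. Of the 502 genes read on 2 arrays, 57 (11.4%) were read in animals 4 and 6 and 167 (33.3%) in animals 1 and 5, the arrays with the most spots above background. Among the 8 granulocyte genes measured in all animals the median deviation from the gene mean, relative to that of all genes, was 0.79 and 0.55 in animals 4 and 6 and -0.64, -0.39, -0.01 and -0.43 in animals 1, 2, 3 and 5, where the sign of animal 3 depended on the scaling. Animals 4 and 6 were the highest pair in 3 of these 8 genes. The list contains S100A12, which is also in the monocyte list. Only CSF3R and HP, the haptoglobin gene, had an SD of at least 1, and HP was highest in animals 3 and 4 (3.17 and 3.48). ARG1, LCN2 and MMP25 had SDs of 0.47 to 0.69. Whether the granulocyte genes account for the levels of DGAT2 and its like was not tested.

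Monocyte genes differed in the same direction with smaller steps. Relative to all genes, the median deviation of the 28 measured genes was 0.61 and 0.71 in animals 4 and 6, 0.28 in animal 3, and -0.68, -0.27 and -0.44 in animals 1, 2 and 5. The signs were the same under each of the 4 other scalings and background corrections tried. NCF1, a subunit of the phagocyte oxidase, measured 0.00, -0.18, 0.74, 2.86, -0.14 and 2.97. TYROBP, an adaptor of myeloid receptors, measured 3.77, 4.35, 5.31, 6.06, 4.11 and 6.52. CD14, the lipopolysaccharide co-receptor, measured 0.23, 1.82, 1.98, 2.25, 0.77 and 2.39. In NCF1 and TYROBP animals 4 and 6 lay above all others, whereas in CD14 only animals 1 and 5 were apart, below the rest. Of the 28 genes 8 had an SD of at least 1. Animals 4 and 6 were the highest pair in 11 of the 28 monocyte genes, and animals 1, 2 and 3 were the highest 3 in 0 of them.

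**Figure D4:**
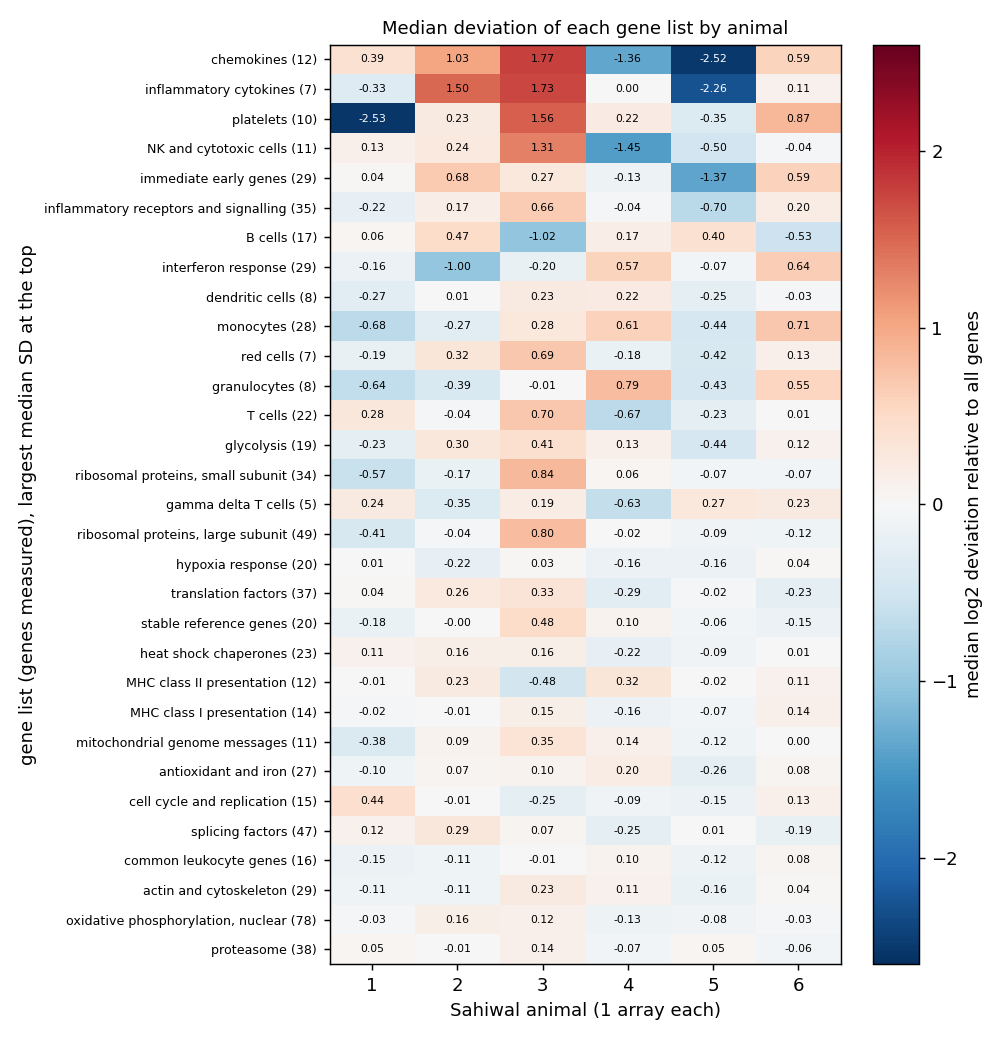
Rows are the 31 gene lists, ordered by median SD, with the number of measured genes in brackets, and columns the 6 animals. Each cell gives the median over the list of the log2 deviation from each gene's mean, minus the same median over all genes. Chemokines range from -2.52 (animal 5) to 1.77 (animal 3), platelet genes from -2.53 (animal 1) to 1.56 (animal 3), and the proteasome row stays between -0.07 and 0.14.

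The list values are relative to all genes because the median gene itself deviated by -0.18 (animal 6) to 0.12 (animal 2). Chemokine genes stood at 0.39, 1.03 and 1.77 in animals 1 to 3 and at -1.36, -2.52 and 0.59 in animals 4 to 6. In animals 1 to 6, cytokine genes stood at -0.33, 1.502, 1.73, 0.00, -2.26 and 0.11, and genes for inflammatory receptors and signalling at -0.22, 0.17, 0.66, -0.04, -0.70 and 0.20. Over the chemokine list animal 6 thus lay above animal 1, and over the other 2 lists animal 1 lay below animals 4 and 6. The signs of the chemokine values, and of the cytokine values of animals 2, 3 and 5, were the same under all 5 ways of scaling and background correction.

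Animal 5 was lowest in 23 of the 29 measured immediate early genes and in 18 of the 35 genes for inflammatory receptors and signalling, against 19.2% of all genes. It was not the lowest animal over the monocyte list, where animal 1 was. Among the 25 genes with the largest SDs, CXCR4, the receptor that holds leukocytes in marrow and tissue, measured 3.95, 5.00, 4.83, 2.94, -2.06 and 2.33, and its second probe had an SD of 2.59. MEFV, the pyrin inflammasome gene, measured 3.24, 5.15, 5.84, 2.25, -1.45 and 4.30. G0S2, a gene of lipid droplet lipolysis control, was read in every animal but this one, at 2.44, 3.91, 5.36, 1.08 and 0.97. Immediate early genes stood at -1.37 in animal 5 relative to all genes, and in no other animal below -0.13. Without animal 5 the SDs were 1.17 for CXCR4, 1.44 for MEFV and 1.597 for CXCL3, instead of 2.61, 2.62 and 3.14. Animal 5 had 20408 spots above background and a 75th percentile of 268, both within the range of the other arrays.

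Platelet genes were low in animal 1. The median deviation of the 10 measured platelet genes relative to all genes was -2.53 there and -0.35 to 1.56 in animals 2 to 6, and 7 of the 10 had an SD of at least 1. PF4, platelet factor 4, measured 3.03, 6.47, 7.72, 6.11, 5.01 and 7.12. GNG11, a G protein subunit gene, measured 2.97, 6.96, 7.95, 5.72, 5.58 and 5.99. PPBP, the precursor of a platelet chemokine, measured -0.44, 2.39, 4.07, 2.32, 2.01 and 3.30. Animal 1 was lowest and animal 3 highest in each of these, and PF4 and PPBP also stand among the chemokines. THBS1, the adhesive glycoprotein gene thrombospondin 1, is expressed by monocytes too, and was low in animals 1 and 5 (0.06 and 0.16). VWF and TREML1 were lowest in animal 1 as well, at -2.25 and -2.85, while F13A1, which monocytes also express, varied less (SD 0.56).

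CLU, the clusterin gene, set animal 1 apart with -1.75 against 2.94 to 4.62 in the others, and its second probe had an SD of 2.42. ACTA2, the smooth muscle actin gene, measured -3.06 in animal 1 and 0.88 to 3.58 in the others. The ACTA2 level of animal 1 lay close to the dimmest signal read as present on its array (-3.46). Other processing choices gave ACTA2 an SD of 1.58 to 2.40. Without animal 1 the SDs were 0.69 for CLU and 1.04 for ACTA2, instead of 2.46 and 2.31. This animal's array had the largest number of spots above background and the highest 75th percentile.

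Globin genes, which come from red cells and their precursors, did not all vary together: HBB and HBG were alike and HBA differed. HBB, the adult beta globin gene, measured 0.82, 4.89, 5.92, 4.65, 3.67 and 5.85 in animals 1 to 6, and HBG, a gamma globin gene, measured 2.13, 5.06, 6.93, 5.52, 4.69 and 6.23. In both, animal 1 was lowest and animal 3 highest, the same ends as in PF4, GNG11 and PPBP. A second HBG probe, with an SD of 0.83, was lowest in animal 1 (-1.70) but highest in animal 6 (0.29). HBA, the alpha globin gene, measured 0.43, 1.02 and 2.76 in animals 1 to 3 and -2.53, -2.54 and -1.93 in animals 4 to 6. Its SD was 1.38 with the other background correction, instead of 2.20, and its levels in animals 4 to 6 lay close to the dimmest readable signals. GYPC and SLC25A37, which other blood cells also express, had SDs of 0.67 and 0.62, and of 20 red cell genes on the array 7 were measured. Globin genes of the same cluster, such as HBB and HBG, are closely related copies, so a probe may read more than 1 of them.

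The HBB probe is shown because beta and alpha globin ordered the animals differently. It lies at chr15:47825720-47825779 (HGSC Btau_3.1), plus strand.
HBB probe: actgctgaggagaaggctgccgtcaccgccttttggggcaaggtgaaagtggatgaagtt

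Cytotoxic lymphocyte genes were lowest in animal 4 and highest in animal 3. Relative to all genes, the median deviation of the 11 measured NK and cytotoxic genes was 1.31 in animal 3, -1.45 in animal 4 and -0.50 to 0.24 in the other animals, the sign of animal 6 depending on the scaling, and 7 of the 11 had an SD of at least 1. GZMB, the granzyme B gene, measured 4.01, 4.89, 5.46, 2.02, 3.22 and 4.52. GNLY, granulysin, measured 4.24, 4.71, 5.70, 2.34, 3.41 and 4.45. PRF1, perforin, measured 1.46, 1.98, 2.45, -0.47, 0.64 and 0.70. In all 3 genes the order at the ends was the same, with animal 3 on top and animal 4 at the bottom. CCL5, a chemokine of cytotoxic and memory T cells, ran from 4.96 (animal 4) to 9.04 (animal 3) with 2 arrays saturated. FCGR3A, which monocytes express as well, was instead highest in animal 6 (4.43), and TBX21 was even (SD 0.39).

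T cell genes had the same ends with smaller steps. Relative to all genes they stood at 0.70 in animal 3, 0.28 in animal 1, -0.23 in animal 5 and -0.67 in animal 4. CD3D measured 3.56, 3.41, 4.27, 2.33, 3.22 and 3.05, and CD8A, the co-receptor of cytotoxic T cells, measured 3.32, 3.27, 4.29, 2.38, 3.35 and 3.06. Both had animal 4 lowest and animal 3 highest. Of the 22 measured T cell genes 2 had an SD of at least 1, among them CD5, an inhibitory surface receptor gene of T cells (SD 1.06), which read 2.16 in animal 3 and -0.49 in animal 6. The 5 measured gamma delta T cell genes had a median SD of 0.53, from 0.24 (BLK, which is also in the B cell list) to 0.67 (GATA3), and WC1.3 read 0.57 in animal 4 and 0.63 in animal 2 against 1.45 to 1.87 in the others.

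B cell genes were low in animals 3 and 6. Their median deviation relative to all genes was -1.02 in animal 3 and -0.53 in animal 6, and 0.06 to 0.47 in the others, with the same signs under all 5 ways of scaling and background correction. SPIB, a transcription factor gene of B cells and plasmacytoid cells, measured 1.18, 0.95, -1.35, 1.72, 1.74 and -0.46. MS4A1, which encodes CD20, measured 4.33, 4.33, 2.34, 3.73, 4.41 and 3.26. In both genes animal 3 was lowest and animal 6 next. The plasma cell genes JCHAIN and MZB1 were also lowest in animal 3 but high in animal 6, at 5.14 and 0.77. Only SPIB and POU2AF1, a B cell coactivator gene with 3.01 in animal 6 and 6.29 in animal 2, had an SD of at least 1 in this list, whose median SD was 0.78.

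Interferon response genes were high in animals 4 and 6 and low in animal 2. Relative to all genes the median deviation of the 29 measured genes was 0.57 and 0.64 in animals 4 and 6, -1.001 in animal 2, and -0.20 to -0.07 in the others. IFIT2, which binds foreign RNA, measured -1.56, -1.96, 0.05, 2.55, -1.70 and 3.36. ISG20, an exonuclease gene, measured -0.22, -0.68, 0.81, 2.78, -1.24 and 2.64. IFIT3 was read in animals 4, 5 and 6 only, at 3.34, -2.97 and 2.81, and IFIT1 in animals 4 and 6 only. These IFIT genes separate animals 4 and 6 by several units. Other members of the class did not: MX1 was lowest in animal 3 (2.55) and 3.77 to 5.07 elsewhere, ISG15 was highest in animal 3 (6.38) and lowest in animal 5 (1.98), and EPSTI1, the brightest of the class, measured 4.50 ± 0.51 (SD, n = 6). Of the 29 genes 8 had an SD of at least 1.

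On the scale used here antigen presentation genes varied like the typical gene. Their median SDs were 0.462 (MHC class I) and 0.471 (MHC class II), against 0.460 over all genes. With quantile normalization class I stood lower, at 0.335 against 0.435. On a scale that sets the median of all probes equal, class II stood higher, at 0.516 against 0.449. Of the 14 class I genes 6 were saturated on at least 1 array. Of 12 measured MHC class II genes, BOLA-DRB3 had an SD of 0.14 and BOLA-DRA, saturated on 2 arrays, of 0.22. CIITA, the master regulator of the class, was the exception, with -1.94 in animal 3 and 0.06 to 0.99 in the others. BOLA-DRB3, a highly polymorphic gene, had 2 further measured probes with SDs of 0.37 and 1.095, so the spread depends on the probe.

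Class I probes differed from each other. The symbol BOLA has 14 measured probes, of which 13 have SDs of 0.25 to 0.60. Of these 13, 8 were saturated on at least 1 array, and the 5 unsaturated ones have SDs of 0.48 to 0.60, slightly above the median of all genes. The unsaturated ones include BOLA-N probes with SDs of 0.51 and 0.60, so not every BOLA-N probe was uneven. The last of the 14, placed by the array annotation in the BOLA-N gene, measured -2.14, 5.37, 6.85, -1.49, -1.84 and 0.18 and had the largest SD of any measured probe, 3.95. It does not stand for the gene in the counts above, as it is not the brightest. Another BOLA-N probe, not among the 14, was read at 2.26, 3.71, 5.59, 3.38 and 3.87 in animals 1, 2, 3, 5 and 6. It was not well above background in animal 4. The class I genes of cattle form a family of near-identical and highly polymorphic copies, and how each animal's alleles match a probe was not tested. An unsaturated class I probe of typical spread and an uneven one are set side by side here, with the longest run that they share (13 bases) in capitals. The first lies within chr23:28656079-28656442 (HGSC Btau_3.1), minus strand, and was read at 6.55 to 8.01 in all animals, with an SD of 0.52. The second is the BOLA-N probe that was not read in animal 4.
BOLA probe, typical spread: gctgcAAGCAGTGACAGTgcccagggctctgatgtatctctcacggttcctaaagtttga
BOLA-N probe, uneven: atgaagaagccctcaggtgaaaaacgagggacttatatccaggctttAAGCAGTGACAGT

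IGFLR1, a receptor gene of the TNF receptor family, set animal 6 apart. It measured 4.40, 5.10, 5.41, 4.88, 4.79 and -1.13 in animals 1 to 6, a span of 93.1-fold. Without animal 6 its SD was 0.37 instead of 2.49. It has no second measured probe, so the value rests on 1 probe.

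Proteasome and oxidative phosphorylation genes had the lowest median SDs of the 31 lists. The 38 proteasome genes had a median SD of 0.31 and the 78 nuclear oxidative phosphorylation genes of 0.33, with no gene of either list at an SD of 1. With quantile normalization other lists were lower than these (0.263 and 0.259). They were the small and large ribosomal subunit genes, many of them saturated (0.125 and 0.246), and the mitochondrial genome messages (0.236). Actin and cytoskeleton genes (median SD 0.38), common leukocyte genes (0.40) and splicing factors (0.41) were also below the median of all genes, though leukocyte genes were above it with quantile normalization and splicing factors with normexp. Of these 3 lists only the splicing factor gene SRSF5 reached an SD of 1. Among glycolytic genes, which varied more than the typical gene (median SD 0.54), 3 of 19 did, led by PFKFB3, the kinase that sets the glycolytic rate, at 4.46, 7.501, 6.30, 5.84, 4.06 and 5.55. Hypoxia response genes had a median SD of 0.52, and BHLHE40, a circadian and hypoxia repressor gene, was the only one of 20 at an SD of 1. It measured 3.88, 4.66, 4.34, 2.15, 1.56 and 2.07, with animals 1, 2 and 3 above the others. SLC40A1, the iron exporter ferroportin, was the most variable of the antioxidant and iron genes, at 0.85, 3.06, 4.25, 5.31, 2.24 and 5.81. Of the brightest stable reference genes, ACTB, ACTG1, EEF1A1 and B2M were saturated on 2 to 6 arrays in their brightest probe. Their other unsaturated probes, where they had any, gave SDs of 0.22 to 0.43 (2 probes of ACTB), 0.23 to 0.27 (2 of ACTG1) and 0.34 to 0.45 (7 of EEF1A1).

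The animals also separated in the data as a whole. Correlations between arrays over all measured probes ran from 0.902 (animals 3 and 5) to 0.961 (animals 2 and 3), and that of animals 4 and 6 was 0.959. The first principal component held 41.1% of the variance, with animals 1, 2 and 3 on one side (0.11, 0.52 and 0.52) and animals 4, 5 and 6 on the other (-0.40, -0.32 and -0.43). The second held 28.1% and set animals 1 and 5 (0.47 and 0.62) against animals 3, 4 and 6 (-0.31, -0.32 and -0.44).

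The slides were compared as the one technical division the headers give. Animals 1 and 2 were on 1 slide and animals 3 to 6 on another, which were also scanned separately. Between slides 0 of 7707 genes were called (0% of all tested, limma, Benjamini-Hochberg adjusted p under 0.05, lowest adjusted p 0.928), and 307 had an unadjusted p under 0.05. Without animal 3, 16 genes were called and 912 had an unadjusted p under 0.05. In CCL3, CCL4, CXCL2, CXCL3 and GRO1, animal 3 of the larger slide stood with both animals of the smaller one above the rest. The DGAT2 pattern divides the larger slide, where animals 4 and 6 stood above animals 3 and 5. Within slides the SD of DGAT2 was 3.71, that of CCL4 3.16 and that of CSF3R 2.08. Animals are nested in slides, so a difference between slides and between these animals cannot be told apart.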

How the data were processed

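Total RNA of PBMC from 6 Sahiwal females was labelled with Cy3, per the labels' protocols. Per the file headers, the authors read 2 slides on an Axon GenePix scanner and made the deposited intensity values with Feature Extraction 9.5.3.1. Its processed signal is background-subtracted and spatially detrended, with a surrogate for signals not above background. The authors' deposited log2 value table was used only for SDs, since its columns match the scanner files in another order. Its column medians ran from -0.73 to 0.00, and its scaling is not given in the sources used here.

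Only ControlType 0 spots were used. Values marked as outliers by the software (23 to 57 an array) were dropped, repeated spots of a probe were averaged, and each array's 75th percentile over all probes was subtracted from the log2 intensity. Saturated spots were kept. Of 43653 probes, 34742 had a gene symbol, 28311 of them through accessions in a RefSeq table (ARS-UCD2.0), from which no coordinates were taken. Coordinates are those of the array annotation. Of the 15096 measured probes, 122 have a marked spot on some array and 2102 have no symbol. Slides were compared with limma 3.58.1 in R 4.3.3. On simulated data for that comparison (7707 genes) the test made 8 false calls. It found 50 of 50 genes with a 4-unit log2 change, 42 of 50 with 2 units, 3 of 50 with 1 unit, and 0 of 50 with 0.5.

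Genes were named by rule: the 15 brightest unsaturated genes, the 25 with the largest SDs, the brightest and most variable gene of each list, the 5 brightest reference genes, and the 5 most and 5 least like the gene with the largest SD. Other genes were named after their values were seen, and some genes that the rule names are not reported here. The part, its lists and its rules were chosen with earlier results of these data known. P-values measure only the spread between these arrays.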

Additional observations from a re-analysis of the deposited data

Results flagged for a closer look

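In 3 of the 77 named genes that were saturated on no array, 1 animal lay far from the others, by the gap to its nearest neighbour over the whole range (Dixon's test at 95%, which chance passes in about 1 in 20 groups). The ratio was 0.846 for IGFLR1, with animal 6 lowest, 0.737 for CLU, with animal 1 lowest, and 0.680 for CIITA, with animal 3 lowest. Over all 7707 measured genes, 392 (5.09%) passed the same value.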

How the results depend on the processing

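The count of 416 genes with an SD of at least 1 was 211 with normexp background correction, 722 with probes above background on at least 4 of 6 arrays and 1878 with no filter on dim probes, where surrogate signals enter. Without a filter 16689 genes were kept. When a gene's probes were averaged, 4 of the 15 brightest genes stayed among the first 15. Leaving out 1 array at a time gave 396 to 467 genes with an SD of at least 1, a median SD of 0.44 to 0.48, 17 to 22 of the 25 most variable genes and 0 to 16 genes called between slides, the 16 without animal 3, while leaving out animal 1 or 2 leaves a slide with 1 array, assumed to vary like the others. Scaling, the value table and SDs within slides kept 19 to 25 of the 25 genes and 400 to 458 genes at an SD of 1. Arrays with weights gave 780 genes at an unadjusted p under 0.05 between slides and none called. Of the recomputed SDs of named genes, 317 stayed close to their value and 8 moved by over 1.5 times. Relations with DGAT2 were not tested, as its values form separate clusters. No paired analysis was possible because only 1 breed enters, so replicate numbers pair no samples. Dim probes and saturated spots limit what can be read at either end of the scale.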
